A study of Mus musculus with 27 samples.

Results

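A set of 1692 lamin B1 regions was marked by a ChIP-seq peak in cells treated with TGF-β for 24 h and by none in untreated cells or at 8 h. The peaks of the 3 lists were merged where they touched or overlapped, which gave 13306 regions, and the 24 h only regions made up 12.7% of them (95% Wilson interval 12.2 to 13.3%). The other regions had peaks at all times (2431), at 8 and 24 h (2574), at 8 h only (4439), at 0 h only (1002), at 0 and 8 h (902) or at 0 and 24 h (266). The members were thus chosen by the presence of a peak at 24 h and its absence before, and those 3 readings are a description of the set and not a result.

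The cells were NMuMG, a line of mouse mammary epithelial cells that undergoes epithelial to mesenchymal transition (EMT) under TGF-β, and the labels give the added dose as 1 to 5 ng/ml. Lamin B1 ChIP-seq (antibody ab16048, 2 parallel ChIPs mixed into 1 library) and ATAC-seq, which marks accessible chromatin, gave 1 library each for cells without TGF-β and for cells 8 and 24 h after its addition. RNA-seq gave 2 libraries per time in parental cells, and 2 per time in cells carrying a lentiviral control shRNA and in cells carrying an shRNA against lamin B1, all of the same line. Chromatin for ChIP was sonicated mildly, so that open chromatin was favoured and large fragments were left out. Because each ChIP and ATAC time was a lone library, no difference between times or between region classes could be tested against replicates, and all intervals on shares of regions cover counting error only.

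Lamin B1 is a B-type lamin, a filament protein that lines the inner face of the nuclear envelope and also occurs in the nuclear interior. Long, gene-poor and A/T-rich stretches of chromatin that touch this layer are called lamina-associated domains, and genes in them tend to be silent. In EMT, epithelial cells lose E-cadherin junctions and take up mesenchymal traits under transcription factors such as those of the Snail and ZEB families, and TGF-β starts the programme through type I and type II receptors and SMAD proteins.

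The sequences below come from the members that the results return to, and show up to 200 bases close to the middle of each region on the plus strand of mm9 (NCBIM37), with bases annotated as UTR avoided. Capitals mark CG pairs. The regions at Plcb1, Nsd1 and Zdhhc14 had the highest scores at a gene start, those at Gadd45a and Ctgf lay at the genes with the largest rise at 24 h in parental cells, those at Pls1 and Neurl1b at the genes with the largest fall, and Cdh1 is the only epithelial gene of the lists with such a region at its start.
Plcb1 (chr2:134611695-134611894): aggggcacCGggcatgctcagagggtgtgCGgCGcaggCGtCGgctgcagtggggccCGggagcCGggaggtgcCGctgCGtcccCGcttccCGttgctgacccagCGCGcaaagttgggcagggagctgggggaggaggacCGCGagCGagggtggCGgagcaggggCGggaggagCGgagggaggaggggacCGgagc
Nsd1 (chr13:55312473-55312672): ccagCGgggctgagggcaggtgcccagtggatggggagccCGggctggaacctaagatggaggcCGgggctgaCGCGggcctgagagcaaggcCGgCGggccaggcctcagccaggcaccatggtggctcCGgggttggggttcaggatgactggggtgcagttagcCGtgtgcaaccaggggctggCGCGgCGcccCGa
Zdhhc14 (chr17:5493447-5493646): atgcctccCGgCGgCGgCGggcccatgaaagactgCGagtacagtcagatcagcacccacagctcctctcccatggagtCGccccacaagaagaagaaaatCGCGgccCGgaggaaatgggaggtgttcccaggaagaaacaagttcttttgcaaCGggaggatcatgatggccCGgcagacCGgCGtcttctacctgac
Gadd45a (chr6:66986791-66986990): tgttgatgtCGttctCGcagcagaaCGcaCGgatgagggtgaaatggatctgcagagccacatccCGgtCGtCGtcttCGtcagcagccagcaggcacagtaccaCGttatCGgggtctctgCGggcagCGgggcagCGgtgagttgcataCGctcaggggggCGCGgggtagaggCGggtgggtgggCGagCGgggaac
Pls1 (chr9:95745719-95745918): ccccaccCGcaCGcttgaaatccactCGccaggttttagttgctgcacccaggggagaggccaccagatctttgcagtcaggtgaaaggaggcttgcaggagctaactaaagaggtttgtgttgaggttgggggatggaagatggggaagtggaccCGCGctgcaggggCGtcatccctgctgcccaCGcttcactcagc
Ctgf (chr10:24315532-24315731): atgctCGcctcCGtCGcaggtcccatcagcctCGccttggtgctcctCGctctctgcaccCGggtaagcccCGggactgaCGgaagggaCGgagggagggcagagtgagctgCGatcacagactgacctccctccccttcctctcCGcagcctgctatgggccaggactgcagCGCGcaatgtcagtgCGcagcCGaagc
Neurl1b (chr17:26552033-26552232): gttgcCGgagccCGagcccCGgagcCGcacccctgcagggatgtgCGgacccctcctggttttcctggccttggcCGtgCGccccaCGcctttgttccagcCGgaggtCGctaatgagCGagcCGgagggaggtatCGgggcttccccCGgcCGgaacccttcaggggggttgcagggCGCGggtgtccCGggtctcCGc
Cdh1 (chr8:109127395-109127594): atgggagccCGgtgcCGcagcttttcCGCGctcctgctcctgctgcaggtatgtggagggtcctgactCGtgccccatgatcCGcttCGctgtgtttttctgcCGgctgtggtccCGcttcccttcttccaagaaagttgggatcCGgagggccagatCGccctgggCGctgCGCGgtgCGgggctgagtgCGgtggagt

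The 8 sequences held 7 to 20 CG pairs in 200 bases, and their GC content was 59 to 75.5%. Their middles lay between -100 bp (Plcb1) and 1430 bp (Nsd1) from the gene start, where negative is upstream. A different kind of member is shown next, chosen after its values were seen: the pair of highest score among the regions of under 50% GC that carry a run of AC or GT. Capitals mark the runs.
Chromosome 10 (chr10:21141603-21141802): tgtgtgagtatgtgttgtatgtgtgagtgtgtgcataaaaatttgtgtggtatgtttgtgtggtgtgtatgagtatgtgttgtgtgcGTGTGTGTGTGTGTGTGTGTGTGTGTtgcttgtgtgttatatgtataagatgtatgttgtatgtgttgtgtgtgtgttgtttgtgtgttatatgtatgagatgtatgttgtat
Chromosome 15 (chr15:79693907-79694106): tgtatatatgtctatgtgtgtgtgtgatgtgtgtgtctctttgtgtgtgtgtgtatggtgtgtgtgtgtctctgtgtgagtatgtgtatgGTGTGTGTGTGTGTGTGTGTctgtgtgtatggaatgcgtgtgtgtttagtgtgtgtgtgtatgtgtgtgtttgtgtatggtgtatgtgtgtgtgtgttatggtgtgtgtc

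Neither region lay in a gene or overlapped an ATAC peak at 24 h, and each held 1 CG pair in 200 bases. Their scores of 116.1 and 111.4 stood above the median of the members.

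The 24 h peak of a member was weaker and shorter than other 24 h peaks. The MACS score, the value by which the authors' peak caller ranked peaks, had a median of 63.3 (quartiles 55.9 and 79.6) over the 1692 member peaks and of 93.0 (68.0 and 134.5) over the other 5391 peaks of the 24 h list. A score of 100 or more was reached by 10.9% of member peaks and by 44.2% of the others, and 40.7% of member peaks had a score under 60, where the list began at 50.02. The median width was 772 bp against 959 bp. As membership depends on where the lists stop, these values describe the members and were not tested.

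The highest score, 277, belonged to a region of chromosome 15 (chr15:76486351-76487606) at a transcript start inside Cyhr1, 2.17 kb from the nearest earlier peak. Below it came regions at the starts of Plcb1, a phospholipase C (score 245), Nsd1, a histone H3 lysine methyltransferase (224), Zdhhc14, a palmitoyltransferase (224), Arhgef12, a guanine nucleotide exchange factor (195), Hoxc13, a homeobox gene (185), Rab22a with the pseudogene Ppp4r1l-ps (182), Pik3c2b, a PI3-kinase (174), Ctgf, a matricellular protein induced by TGF-β (169), and Cnot2, a subunit of the CCR4-NOT deadenylase (168). The Nsd1 region was also the widest, at 3079 bp. The next widest, of 2383 bp (chr15:74915538-74917920), lay outside genes, 24.2 kb from Ly6c2, and differed from the rest in composition: it had 40.2% GC and an ATAC peak at every time, with ATAC scores of 498, 281 and 538. The third, of 1887 bp, was the Zdhhc14 region.

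Most members stood far from any earlier peak. The median gap to the nearest 0 h or 8 h peak was 41.8 kb (quartiles 11.3 and 123 kb), 132 members lay within 1 kb of one, and 27 within 100 bp. Just inside the rule were members 2, 3 and 7 bp from an earlier peak, the second of them at the start of Gnb1, a G protein subunit, with scores of 77.4, 58.7 and 54.5. Just outside it were 24 h peaks that overlapped an earlier peak by 6, 18 and 25 bp, the nearest at the start of Fam120a, with scores of 114, 102 and 52.0.

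Of the 1692 regions, 878 (51.9%, 95% interval 49.5 to 54.3%) lay within 500 bp of a gene start, 138 at another transcript start, 95 within 2500 bp of a gene start, 174 in exons, 141 in introns and 266 outside genes. Regions with peaks at all times were at a gene start in 82.6% (81.0 to 84.1%), those at 8 and 24 h in 73.3% (71.6 to 74.98%), those at 8 h only in 41.3% (39.9 to 42.7%) and those at 0 h only in 34.0% (31.2 to 37.0%). The 24 h only regions stood between the classes seen at several times and the 8 h only class, and their interval overlapped none of these. The same order was seen when regions were classed anew from cut lists, although the share itself rose. In lists of equal length it was 67.6% against 84.4, 79.2 and 58.4%. With a score of at least 100 in every list it was 76.6% against 85.8, 82.0 and 69.9%. Classing anew takes in regions whose earlier peak fell below the cut, so these shares are not of the members alone. At a score of 100, 903 regions were then 24 h only, where 184 members reached that score. Members of higher score lay at a gene start more often, 67.9% of the 184 with a score of 100 or more and 44.5% of the 688 under 60.

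The members varied more in base composition than other regions. Their mean GC content was 60.5% (SD 9.55 over regions, range 31.4 to 81.9%), close to the 58.97% of 8 h only regions and below the 62.3% of regions seen at all times, while chromosomes 1 to 19 and X together have 41.8%. The SD was more than that of any other class compared (4.18 at all times, 5.32 at 8 and 24 h, 5.59 at 8 h only and 4.43 at 0 h only), as both ends of the range were filled. At the low end, 277 members (16.4%, 14.7 to 18.2%) had a GC content under 50%, a split set after the values were seen, against 0.576% of regions at all times, 1.94% at 8 and 24 h, 5.97% at 8 h only and 7.68% at 0 h only. At the high end, 223 members (13.2%) were above 70% GC, against 2.92, 7.03, 2.68 and 0.299% in the same classes. Regions classed anew from cut lists take in those whose earlier peak fell below the cut, and are not the members alone. With a score of at least 100 in every list the share under 50% was then 1.77%, and in lists of equal length 4.71%. Those shares were above the 8 h only class (0.737 and 1.57%) but below the 0 h only class (3.92 and 5.28%). Within the members, 22.5% of the 688 regions of score under 60 and 4.35% of the 184 of score 100 or more had a GC content under 50%.

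The members of under 50% GC, called A/T-rich here beside the other regions, differed from the rest in place and sequence. Their mean GC content of 43.1% was near the 41.8% of the genome, so the name does not set them apart from the genome at large. Of the 277, 148 lay outside genes and 92 in introns, and 6 at a gene start. Of the 1415 members of 50% GC or more, 118 lay outside genes, 49 in introns and 872 at a gene start. The A/T-rich members held 1.045 CG pairs per 100 bases against 7.54, and an observed to expected CG ratio of 0.248 against 0.720. Repeats of a dinucleotide were frequent in them. The longest run of a 1 or 2 base unit in the middle 500 bases was of AC or GT, of at least 20 bases, in 155 of the 277 (56.0%, 50.1 to 61.7%). The median length was 32 bases, with up to 182. Such a longest run was found in 26.0% (21.1 to 31.6%) of the 265 A/T-rich regions seen at 8 h only and in 14.8% (10.1 to 21.3%) of the 155 in the other classes. It was found in 2.33% of the G/C-rich members. Any run of AC or GT of at least 20 bases, longest or not, was found in 5.00% of all 500-base windows of the genome with under 50% GC. Those windows were picked by their own GC content, and the regions by that of the whole region. The 24 h only class held the largest share of A/T-rich regions of the 5 classes compared in the whole lists, and the interval on the repeat lay above those of the other sets. How reads from repeats were aligned is not given in the sources used here, and no test of the difference between classes was made.

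**Figure D1:**
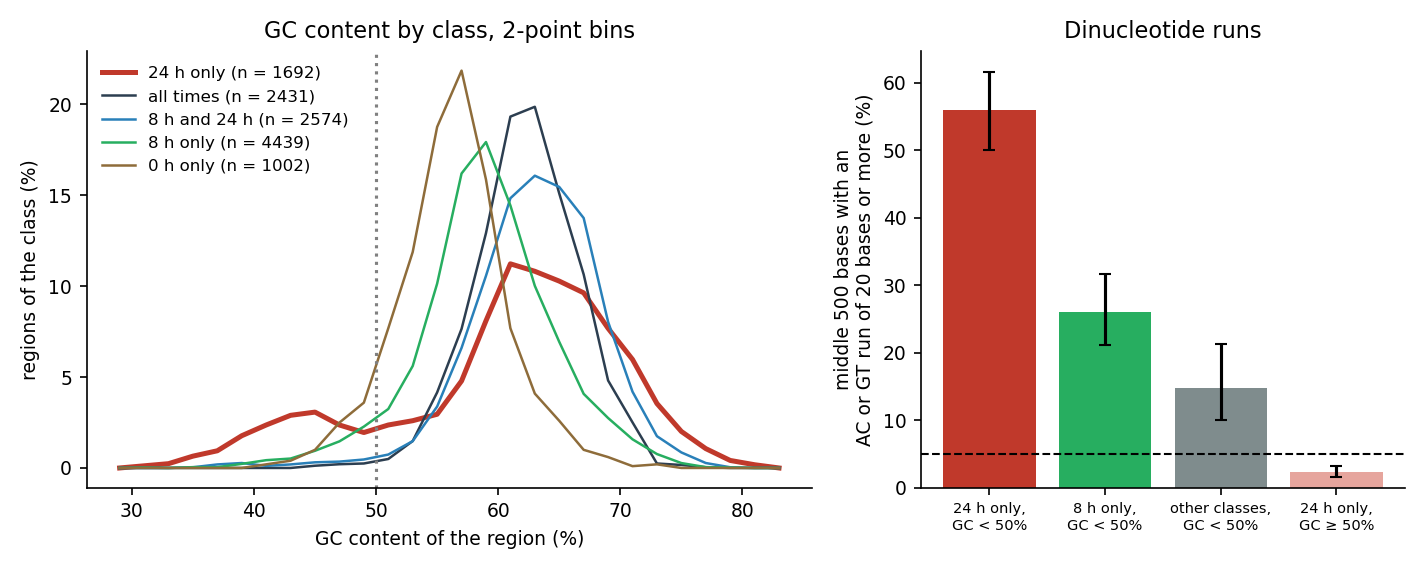
Left, share of the regions of each class (y axis, %) by GC content in bins of 2 points (x axis, %), with the split at 50% dotted. Right, share of middle 500-base windows with a run of AC or GT of 20 bases or more, with 95% Wilson intervals; the dashed line is the 5.00% of genome windows under 50% GC. The 24 h only curve has a shoulder below 50% that the other classes lack, and 56.0% of those regions hold the run.

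The members at gene starts carried G/C-rich motifs about as often as the classes seen at several times. Letters were searched on both strands of the middle 500 bases. The GC box GGGCGG was present in 83.4% of the 878 members at a gene start, 86.2% of those at all times, 85.0% of those at 8 and 24 h and 77.96% of those at 8 h only, against 52.6% of 500-base windows around every protein-coding gene start. The GC-rich SMAD motif GGCGCC was in 54.2% against 56.0, 55.9 and 41.6% in the same order, and in 24.0% of all coding gene starts. The palindromic SMAD box GTCTAGAC was in 0.114%. The AP-1 site TGANTCA was in 3.76% against 4.03% at all times, 3.71% at 8 and 24 h, 4.58% at 8 h only and 9.42% of all coding gene starts. The E-box CACCTG, bound by Snail and ZEB factors, was in 39.1% (35.9 to 42.3%) against 32.6% at all times, 36.7% at 8 and 24 h, 38.3% at 8 h only and 33.6% of all coding gene starts. The CAGA box CAGACA was in 19.5% at gene starts but in 56.7% of A/T-rich members. The CCAAT box CCAAT was in 31.6% against 24.2% at all times, 24.2% at 8 and 24 h, 34.5% at 8 h only and 48.1% of all coding gene starts. The TATA box TATAAA was in 2.62% against 2.89, 2.60 and 4.53% in the same classes, and in 16.7% of all coding gene starts. The letters of TEAD (GGAATG), ETS (CCGGAAG), NRF1 (GCGCATGC), YY1 (AAGATGGC), CREB (TGACGTCA), forkhead (TGTTTAC) and RUNX (TGTGGTT) factors were in 1.48 to 14.6% of the members at a gene start. Windows of regions were centred on the middle of the region, which can lie away from the gene start. Windows of all coding genes were centred on the start itself. Shares in regions and at all coding gene starts, those of the CCAAT and TATA boxes included, thus come from windows placed differently. How far this placing alone shifts the shares was not tested. Overlaps between motifs were not removed, and a match describes letters only.

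Accessible chromatin was less common at the members than at the regions seen at several times. In untreated cells 394 members overlapped an ATAC peak (23.3%, 21.3 to 25.4%). At 8 h 333 did (19.7%, 17.9 to 21.6%), and at 24 h 660 did (39.01%, 36.7 to 41.4%). The corresponding shares were 63.7, 51.7 and 85.3% for regions at all times, 40.2, 33.3 and 59.8% at 8 and 24 h, 19.9, 16.1 and 32.5% at 8 h only and 21.9, 17.96 and 38.0% at 0 h only. The 24 h ATAC list held 33811 peaks, against 9782 and 10340, and shares at 24 h were higher in every class. When each ATAC list was cut to the 9782 highest scoring peaks, the members' shares were 23.3, 19.03 and 22.2%. The 24 h share was then not above that of untreated cells. Such a cut fixes the total number of peaks, so it would also remove a broad gain in accessibility. Each ATAC time was a lone library, and whether the longer 24 h list came from the cells or from the library was not tested. As 276 members had an ATAC peak at all 3 times, 210 at 24 h only and 1031 at none, an ATAC peak seen at 24 h only was found at 12.4% of members. This share was 16.8% for regions with lamin B1 at all times and 10.4% for 8 h only regions.

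Position separated the members more than time did. At a gene start 62.4% (59.2 to 65.6%) overlapped an ATAC peak at 24 h, at another transcript start 41.3%, within 2500 bp 18.9%, outside genes 9.02%, in introns 7.09% and in exons 1.72% (0.588 to 4.95%). Among A/T-rich members 12 of 277 did (4.33%, 2.49 to 7.42%), against 45.8% of the others.

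**Figure D2:**
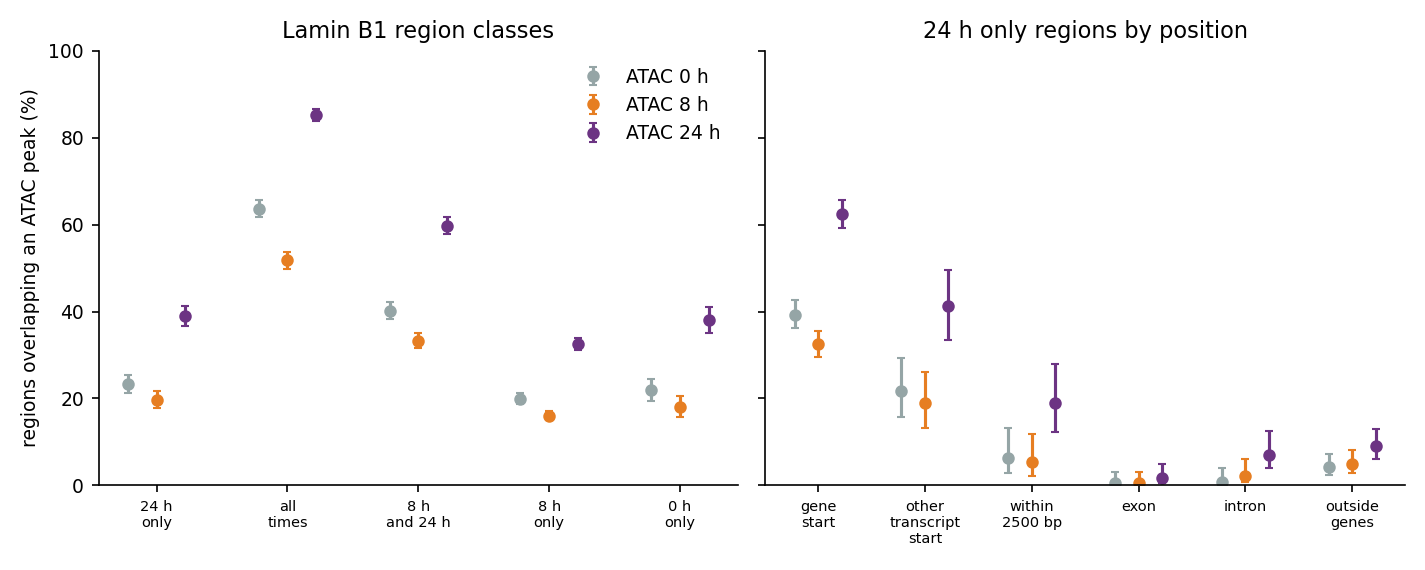
Share of regions (y axis, %) that overlap an ATAC peak in untreated cells (grey), at 8 h (orange) and at 24 h (purple), with 95% Wilson intervals. Left, lamin B1 region classes; right, the 1692 members by position. Members lie near the 8 h only and 0 h only classes, and within them gene starts reach 62.4% at 24 h while exons stay at 1.72%.

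The members were spread unevenly over chromosomes. They made up 23.9% of the 24 h peaks of the genome, but 42.1% (36.8 to 47.5%) on chromosome 4, 38.0% (30.9 to 45.5%) on X, 37.7% on 14, 32.7% on 12 and 32.5% on 18, and only 13.2% (10.3 to 16.7%) on 19 and 16.9% (13.8 to 20.5%) on 15. These shares depend on the rule, which takes regions without earlier peaks, and are a description. Untreated cells had 72.8 peaks per 100 protein-coding genes on 19 and 66.2 on 15, but 3.36 on 14, 3.76 on X, 5.22 on 18, 7.82 on 4 and 8.52 on 12. Per 100 genes, G/C-rich members were more even, from 4.42 on 19 to 9.52 on 4, and over the 20 chromosomes this number and the density of 0 h peaks gave r = -0.25 and a Spearman rho of 0.11. The A/T-rich members went the other way, with 40.8 per 100 Mb on 19 and 30.9 on 15 against 1.10 on 18 and 1.65 on 12 (r = 0.95, rho 0.85). The points of these relations share the same 3 libraries and are a description. The members were mostly isolated. Chained at no more than 100 kb apart they formed 1443 groups, 1255 of them single regions and 41 with 3 or more. The largest group had 6 regions over 320 kb of chromosome 4, with the starts of Cdk11b, Mmp23, Ccnl2, Dvl1 and Ube2j2, and a group of 5 over 207 kb of chromosome 15 held the starts of the TGF-β family receptors Acvrl1 and Acvr1b.

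**Figure D3:**
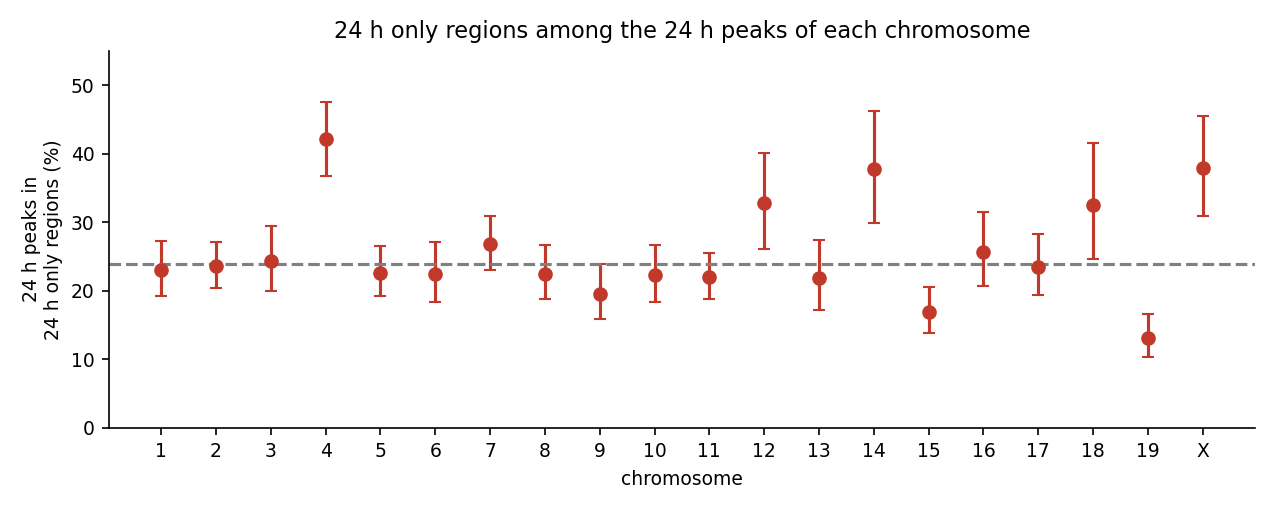
Share of the 24 h peaks of each chromosome (y axis, %) that belong to 24 h only regions, with 95% Wilson intervals; the dashed line is the share over the genome, 23.9%. The intervals of chromosomes 4, 12, 14, 18 and X lie above the line, those of 9, 15 and 19 below it, and the others cross it.

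Before the members' genes are described, the RNA libraries were checked. Lmnb1, the target of the shRNA, had 29.2 and 36.5 FPKM (fragment counts scaled by transcript length and library size) in control cells at 0 h and 9.01 and 9.27 in knockdown cells, a log2 difference of -1.73 (SE 0.18, adjusted p = 0.000573), and at 24 h 18.4 and 17.9 against 4.37 and 7.52. In parental cells Lmnb1 went from 36.9 and 36.3 at 0 h to 19.5 and 17.6 FPKM at 24 h (log2 difference -0.95, adjusted p = 6.38e-06), so its RNA was lower at the time of the members' peaks than before. Of 9 epithelial markers, 4 were at 1 FPKM or more in untreated cells: Krt8 (2031 and 2024 FPKM), Krt18, Krt19 and Cdh1; Epcam was at 0.383 and 0.319 and Elf5 at 0 and 0.0154. Summed fibroblast markers rose from 3.87 to 4.40 FPKM at 0 h to between 12.1 and 13.01 at 24 h, endothelial markers summed to at most 1.51 and leukocyte markers to at most 0.143, with Cd3e at 0 in both untreated libraries. Knockdown was thus partial. Within groups the libraries correlated at r = 0.983 to 0.994 on the log2 scale, and in the shRNA table the 10 highest genes held 11.4 to 40.4% of the summed FPKM. The study's methods call the 2 libraries of a group biological replicates and do not say what set them apart, so p-values measure the spread between these libraries only, and in bulk RNA fewer cells of a kind cannot be told apart from less RNA per cell.

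The starts of 1007 annotated genes, 896 of them protein-coding, lay within 500 bp of a member. Of these, 193 had an earlier peak elsewhere between 2500 bp upstream and the end of the gene, and 32 had another lamin B1 region at the same start. Values existed for 883 in the parental table, and 604 passed the filter of 1 FPKM in 2 libraries. Their median level was 5.69, 5.43 and 6.01 FPKM at 0, 8 and 24 h, with 5.95 and 5.89 in the single libraries at 24 h. The genes at regions seen at all times had a median of 14.7 FPKM at 24 h, those at 8 and 24 h 7.56, those at 8 h only 5.28 and genes with no lamin B1 region at the start 0.0430. At 24 h 67.3% (64.1 to 70.3%) of the 883 genes were at 1 FPKM or more, against 88.3% at all times and 33.5% with none. A further 281 genes (31.8%) stayed under 1 FPKM at every time, beside 34.5% at 8 h only and 49.1% of all genes placed. The regions thus covered active and near-silent starts alike. Among genes of 1 FPKM or more at 24 h 89.4% had an ATAC peak at the start, beside 93.3% at 8 h only and 85.6% of all genes placed. Among the others 19.03% had one, beside 19.3% at 8 h only and 10.1% of all genes placed.

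Genes with a member at the start changed about as often as all genes did. In parental cells at 24 h, 212 of the 604 were higher than at 0 h and 223 lower by limma on log2(FPKM + 1) at an adjusted p under 0.05, which is 35.1 and 36.9%, where 33.4 and 37.1% of all 11309 genes tested passed. The members' median log2 difference was -0.010 against -0.019 over all genes. At 8 h against 0 h 145 were higher and 211 lower (24.0 and 34.9%, background 22.4 and 32.1%), and from 8 to 24 h 186 were higher and 138 lower (30.8 and 22.8%, background 27.7 and 24.0%). In control shRNA cells at 24 h 161 of 600 were higher and 265 lower (26.8 and 44.2%, background 25.5 and 45.1%); after quantile normalization the split was 219 and 196, as the median of all genes lay at -0.13 before it. All these shares were close to their background, and 69 of the 435 parental calls at 24 h were changes of 2-fold or more. Of the 340 genes called at 24 h in parental and in control cells, 325 (95.6%) went the same way, as did 97.4% of all genes called in both. The score of the region was not related to the parental difference (r = 0.02 over 604 genes).

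The 5 largest rises at 24 h are given first. Gadd45a, a DNA damage and stress response gene, started at 4.94 and 4.34 FPKM and had 34.3 and 21.8 at 8 h and 42.2 and 40.2 at 24 h, a log2 difference of 2.91 (SE 0.18, adjusted p = 1.01e-05). Ctgf had 27.6 and 26.3 FPKM at 0 h, 117 and 85.7 at 8 h and 206 and 171 at 24 h (log2 difference 2.76, SE 0.14, adjusted p = 4.91e-06). For both genes the 8 h libraries already stood above the untreated ones. Slc24a3, a potassium-dependent sodium-calcium exchanger, went from 0.836 and 0.789 FPKM to 10.1 and 9.91 at 24 h (log2 difference 2.61). Chst8, a sulfotransferase, went from 0.446 and 0.418 to 7.64 and 7.33 FPKM (2.57). Ptgs2, which encodes the prostaglandin synthase COX-2, went from 9.83 and 9.68 to 55.1 and 47.7 FPKM (2.28). Each of the 5 had an ATAC peak at the region at 24 h, with that of Gadd45a present at all times. That their libraries at 24 h did not overlap those at 0 h was part of the rule that chose them.

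The 5 largest falls follow. Pls1, an actin-bundling protein of microvilli, had 24.3 and 26.4 FPKM at 0 h, 9.07 and 11.5 at 8 h and 2.52 and 2.44 at 24 h, a log2 difference of -2.92 (SE 0.10, adjusted p = 1.06e-06). Neurl1b, a ubiquitin ligase of the Notch pathway, went from 17.0 and 19.2 FPKM to 2.18 and 2.21 at 24 h (log2 difference -2.58). Lima1, an actin-binding protein of epithelial cells, went from 51.3 and 54.7 to 13.9 and 13.8 FPKM (-1.86), Srd5a1, a steroid 5-alpha-reductase, from 20.3 and 19.9 to 5.05 and 5.42 FPKM (-1.76), and Rps6ka1, a kinase downstream of ERK, from 29.4 and 29.1 to 8.10 and 8.44 FPKM (-1.71). All 5 had an ATAC peak at the region at 24 h, and the lack of overlap between their libraries was again part of the rule. Both directions are shown because the rule took 5 of each.

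Among EMT genes, a member marked the start of 1 of 24 mesenchymal genes (Ctgf), 1 of 30 epithelial genes (Cdh1) and 1 of 20 EMT transcription factors (Zeb1), where 4.02% of all protein-coding genes had one. Cdh1, which encodes E-cadherin, had 113 and 119 FPKM at 0 h, 86.3 and 92.9 at 8 h and 39.4 and 41.1 at 24 h (log2 difference -1.50, SE 0.05, adjusted p = 9.92e-07). Its region had a score of 96.9, covered the start and overlapped no ATAC peak at any time. Zeb1, a repressor of Cdh1, went the other way, from 5.25 and 5.79 FPKM to 11.5 and 11.3 at 8 h and 20.2 and 19.8 at 24 h (log2 difference 1.69, SE 0.06, adjusted p = 9.86e-07). Of the whole lists, beside 33.4% higher and 37.1% lower over all genes tested, 20 of 24 mesenchymal genes tested were higher and 3 lower at 24 h (median log2 difference 1.13), 5 of 20 epithelial genes were higher and 12 lower (-0.56), and 10 of 15 EMT factors were higher and 4 lower (0.39).

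In the TGF-β pathway 6 of 60 genes (10.0%) had a member at the start, where 4.02% of all protein-coding genes had one. They were the type I receptors Acvr1b and Acvrl1, the ligand Nodal, the decoy receptor Bambi, the common mediator Smad4 and the repressor Tgif2. None of them was called at 24 h against 0 h in parental cells. Smad4 had 22.6 and 22.1 FPKM at 0 h and 22.7 and 21.7 at 24 h (log2 difference -0.01, adjusted p = 0.853), Acvr1b 6.69 and 7.68 against 6.60 and 6.51 FPKM (-0.11, adjusted p = 0.226) and Tgif2 1.53 and 1.39 against 1.45 and 1.55 FPKM (0.02, adjusted p = 0.802). Other comparisons by limma did call 2 of these. Parental Smad4 was higher at 8 h than at 0 h (0.17, adjusted p = 0.0202) and lower at 24 h than at 8 h (-0.18, adjusted p = 0.0167). In control shRNA cells at 24 h against 0 h Smad4 (-0.23, adjusted p = 0.000779) and Tgif2 (-0.29, adjusted p = 0.0195) were lower, and Acvr1b was not called (-0.12, adjusted p = 0.208). Acvrl1, Bambi and Nodal did not pass the filter on low values, with no parental library above 0.231 FPKM. The Bambi region was nonetheless among the stronger ones, with a score of 155. Over the whole pathway 27 of 44 genes tested were higher and 8 lower at 24 h (median log2 difference 0.46), beside 33.4% higher and 37.1% lower over all genes tested.

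Other lists held members in small numbers, where 4.02% of all protein-coding genes had one at the start. Homeobox genes had 10 of 131 (7.63%), with Hoxc13, Pou3f3 and Dlx2 the highest in score (185, 130 and 121), and Hoxc13 was listed at 0 FPKM in 5 of 6 parental libraries. Wnt pathway genes had 4 of 54, led by Sfrp1 (score 114), a secreted inhibitor, and Dvl1 (87.0). Mitosis and DNA replication genes had 3 of 40, Mcm6, Rfc4 and Rrm1. All 40 genes of that list were lower at 24 h, beside 37.1% of all genes tested. There were 4 of 82 Sox, Fox, Gata and T-box genes, 17 of 364 Zfp genes, 15 of 371 Slc transporters, 4 of 80 cytosolic and 3 of 76 mitochondrial ribosomal protein genes, 2 of 43 collagen genes, 2 of 39 proteasome genes and 2 of 49 chromatin modifying enzymes (Dnmt3b and Setd1b). No member lay at the start of the 17 nuclear lamina genes, the 70 clustered histone genes or the 37 protocadherin genes. These counts were not tested.

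Lamin B1 knockdown changed genes with a member at the start about as often as other genes. At 0 h 62 of the 600 genes tested were higher in knockdown than in control cells and 50 lower (10.3 and 8.33%, background 10.6 and 9.09%). At 8 h 109 were higher and 111 lower (18.2 and 18.5%, background 19.3 and 16.5%), and at 24 h, the time of the peak, 86 were higher and 82 lower (14.3 and 13.7%, background 16.8 and 11.5%). The median log2 difference at 24 h was 0.0001 over the members' genes and 0.02 over all genes, and 2 of the 168 calls reached 2-fold. In a fit of the 24 h groups alone the count was 39, and after quantile normalization 40.7% of the calls were higher in place of 51.2%.

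Among genes of at least 5 FPKM in either group, the largest difference at 24 h was in Lims1, an adaptor of integrin adhesions. It had 57.8 and 58.6 FPKM in control cells and 22.2 and 21.6 in knockdown cells (log2 difference -1.37, SE 0.05, adjusted p = 1.99e-06). The difference was similar at 0 h (47.6 and 50.7 against 17.1 and 17.9 FPKM, log2 difference -1.44). Ptgs2 had 143 and 128 against 100 and 56.0 FPKM (-0.84, adjusted p = 0.0426) and Dek, a chromatin protein, 28.8 and 29.7 against 22.9 and 13.1 FPKM (-0.72, adjusted p = 0.0269), and for both genes the knockdown libraries stood well apart from each other. The call was lost in 12 of 17 alternatives for Ptgs2 and in 4 of 17 for Dek. The largest rise of all, named here outside the rule after its value was seen, was in the less expressed Fhl1, a LIM domain protein (0.685 and 0.839 FPKM in control against 4.52 and 3.20 in knockdown cells, log2 difference 1.45, SE 0.18, adjusted p = 0.000997), followed by the sorting receptor Sorl1 (1.82 and 1.94 against 3.95 and 5.32 FPKM, 0.96, adjusted p = 0.00145). Among genes of at least 5 FPKM the largest rises were in Tubb3, a neuronal beta-tubulin (7.71 and 7.24 against 16.2 and 14.5 FPKM, log2 difference 0.95), Cdh1 (26.8 and 27.6 against 46.6 and 60.1 FPKM, 0.94, adjusted p = 0.000656) and Herc3, a HECT-domain protein (11.9 and 12.6 against 22.4 and 26.2 FPKM, 0.93). The libraries of the groups did not overlap for Fhl1 and Sorl1. For Tubb3, Cdh1 and Herc3 the lack of overlap was part of the rule that chose them.

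The response to TGF-β itself differed between knockdown and control cells in few of these genes. The difference of the 24 h response, knockdown minus control, was called positive in 12 genes and negative in 12, 2% each. The background was 2.73 and 1.98%. A positive difference means more of a rise or less of a fall in knockdown cells. Ctgf had the most negative difference. Control cells went from 75.5 and 72.0 FPKM to 830 and 775 and knockdown cells from 148 and 157 to 860 and 1001. The difference of the log2 responses by limma was -0.83 (SE 0.10, adjusted p = 0.00527). At 24 h itself the 2 kinds of cells differed by 0.21 (adjusted p = 0.0591), and at 0 h by 1.04 (SE 0.07, adjusted p = 6.31e-05). Dusp1, a MAP kinase phosphatase, showed the same form, with 6.65 and 5.96 against 11.3 and 12.8 FPKM at 0 h and 9.68 and 9.17 against 10.7 and 10.6 at 24 h (difference -0.68, adjusted p = 0.0166). Cdh1 was similar at 0 h (121 and 106 against 127 and 121 FPKM) and fell less in knockdown cells, with a difference of 0.81 (SE 0.15, adjusted p = 0.0246). That call was lost in 10 of 17 alternatives, with an adjusted p of up to 0.12, and those of Ctgf and Tubb3 were kept in all 17. Tubb3 rose more, from 0.237 and 0.229 FPKM in control and 0.194 and 0.315 in knockdown cells at 0 h to the 24 h levels above (difference 0.92, adjusted p = 0.00392). Slpi, a secreted protease inhibitor, had 1.78 and 2.25 against 1.13 and 0.991 FPKM at 0 h and 3.41 and 4.41 against 5.65 and 4.95 at 24 h (difference 0.91, adjusted p = 0.0219). These counts rest on single libraries: without replicate 1 of the knockdown cells at 24 h 155 genes were called, and without replicate 1 of the control cells at 24 h 2 were.

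**Figure D4:**
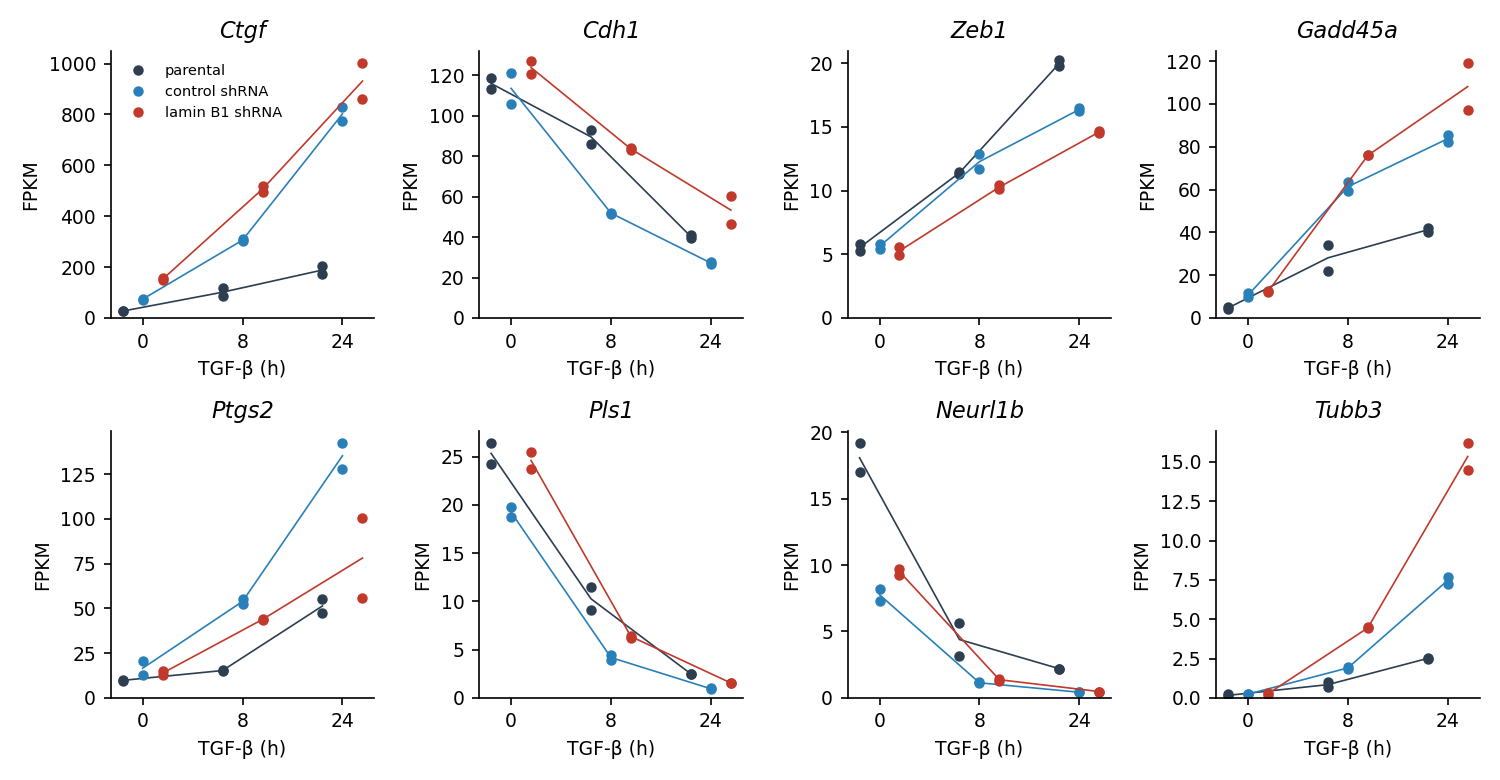
FPKM (y axis) of 8 genes with a 24 h only region at the start, at 0, 8 and 24 h of TGF-β (x axis, evenly spaced), in parental (dark), control shRNA (blue) and lamin B1 shRNA cells (red); points are libraries and lines join the means of 2. Ctgf, Zeb1, Gadd45a, Ptgs2 and Tubb3 rise and Cdh1, Pls1 and Neurl1b fall in all 3 kinds of cells, and Cdh1 stays higher in knockdown cells at 24 h.

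**Figure D5:**
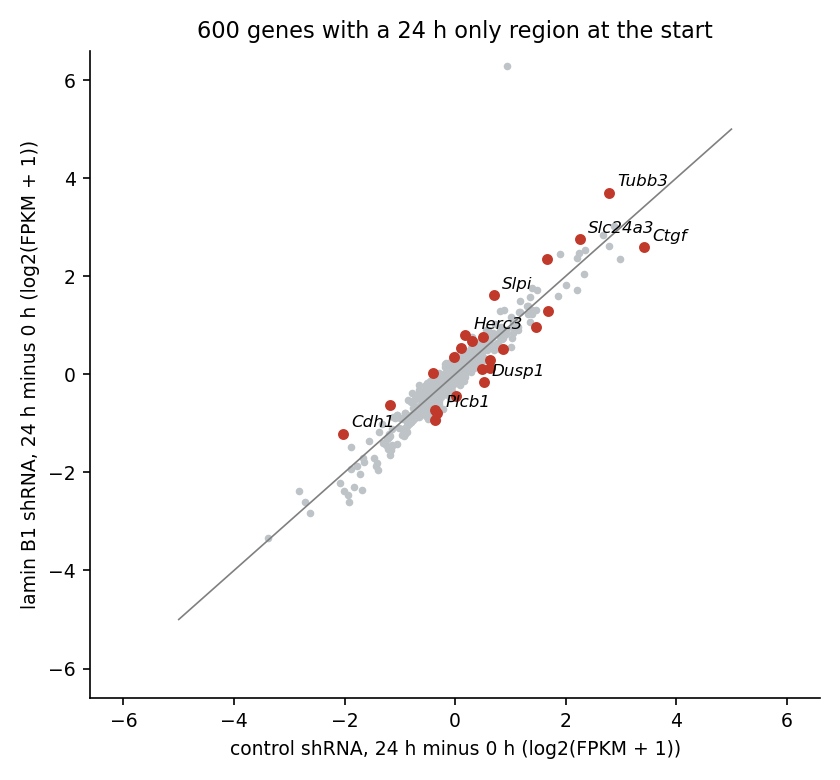
Difference between 24 h and 0 h in log2(FPKM + 1) in control shRNA cells (x axis) and lamin B1 shRNA cells (y axis) for the 600 genes tested, with the line of equal response; red points are the 24 genes called on the difference of the responses. Most points lie along the line. The point at the top is Mir1895 (0.94 in control and 6.28 in knockdown cells), which was not called.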

How the data were processed

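Lamin B1 ChIP-seq and ATAC-seq peaks (1 library per time) and RNA-seq (2 libraries per group and time) of NMuMG cells were used as deposited. Peaks were deposited with their MACS score. IgG control experiments belong to the study, but the MACS version and the control used to call peaks were not given in the sources used here. The FPKM values were computed by the authors. Both FPKM tables lack a header line, and columns were read in the order that the labels name. Lmnb1 checks this order in the shRNA table, and the parental order had no such check. The submitters' processing notes name Bowtie, TopHat, Cufflinks and mm9, with no versions. Read depth is unknown. Hi-C data were not analysed here, and 0 columns of per-sample values were left unused.

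Regions were placed on GENCODE M1 (NCBIM37, mm9) with Python 3.11.15, with a gene start window of 500 bp on each side. Shares have 95% Wilson intervals. log2(FPKM + 1) of genes with at least 1 FPKM in 2 libraries was fitted with limma 3.58.1 (R 4.3.3, mean-variance trend, all groups of a table), with Benjamini-Hochberg adjusted p under 0.05 over all genes tested. The scripts were tested on simulated data. The members and gene lists were chosen with earlier results of these data known. Named genes were the top scores, list members and the largest called changes among genes of at least 5 FPKM whose libraries did not overlap, for the parental, knockdown and difference comparisons at 24 h. Each printed sequence was the 200 bases nearest to the middle of the region that held no annotated UTR, in place of the plain middle first planned. Some items are not reported here.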

Additional observations from a re-analysis of the deposited data

Results flagged for a closer look

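The response to 24 h of TGF-β differed between lamin B1 knockdown and control shRNA cells in 24 genes with a 24 h only region at the start, by the limma test of the difference of the 2 responses. That is 4% of the 600 tested, against 4.72% of all genes, and the count ranged from 2 to 155 with 1 library left out. Among the named genes the log2 difference, knockdown minus control, was negative for Ctgf (-0.83), Dusp1 (-0.68) and Plcb1 (-0.46). It was positive for Tubb3 (0.92), Slpi (0.91), Cdh1 (0.81), Herc3 (0.62) and Slc24a3 (0.50). The sign does not give the size of the response. Cdh1 changed by -2.02 in control and -1.21 in knockdown cells, a smaller fall. Plcb1 changed by -0.33 and -0.79, a larger fall, and Dusp1 by 0.51 and -0.16. Of 17 alternatives, the call was lost in 10 for Cdh1 and Slc24a3, 8 for Plcb1, 5 for Herc3 and 4 for Dusp1 and Slpi. Of the 24 genes, 11 changed less in knockdown than in control cells in absolute size. Plcb1 was at most 1.33 FPKM in every shRNA library, so its difference is one between low values.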

How the results depend on the processing

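The peak threshold moved every value of the regions. Each cut of the lists classed the regions anew, so those whose earlier peak fell below it counted as 24 h only. With peaks at or above the median score of each list, 964 regions were seen at 24 h only, with 71.1% at a gene start, ATAC overlap of 40.2, 32.4 and 62.1% at 0, 8 and 24 h, a mean GC of 64.7% and a median of 8.43 FPKM at 24 h. With a score of at least 100 in every list these were 903 regions, 76.6%, 47.4, 39.2 and 70.3%, 65.4% and 9.24 FPKM. In lists of equal length they were 1400 regions, 67.6%, 34.0, 28 and 55.1%, 64.1% and 6.80 FPKM. The median level was 6.11 FPKM with peaks up to 1000 bp apart merged, 5.51 with an overlap of at least 50% of the shorter peak, 12.8 over genes of at least 1 FPKM in 2 libraries, 4.99 with a window of 2500 bp, and 5.89 to 5.95 with 1 library left out. The share at a gene start was 59.6% within 2500 bp and 60.1% for any transcript start, ATAC overlap was 17.6% at 8 h with at least 50% overlap and 22.2% at 24 h with ATAC lists of equal length, and mean GC was 63.1% in the middle 500 bases. Chosen after seeing the data, regions of 50% GC or more gave 61.6% at a gene start, ATAC overlap of 27.7, 23.3 and 45.8% and 63.9% GC, and the 184 regions with a 24 h score of 100 or more gave 67.9%, 28.8, 27.7 and 53.8% and 64.6% GC.

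Counts of called genes fell where a change of 2-fold was asked for as well, to 18, 69 and 18 in the parental comparisons of 8 h with 0 h, 24 h with 0 h and 24 h with 8 h, to 85 in control cells, to 3, 3 and 2 for knockdown at 0, 8 and 24 h, and to 0 for the difference of the responses, where limma had 125 genes at an unadjusted p under 0.05. With only the groups compared in the fit, knockdown gave 58 genes at 0 h and 39 at 24 h, and the difference 2. With 1 library left out the counts were 276 to 332, 355 to 453 and 224 to 319 in the parental comparisons, 368 to 460 in control cells, 35 to 165, 131 to 293 and 54 to 241 for knockdown at 0, 8 and 24 h, and 2 to 155 for the difference. The lowest knockdown counts at 0 h came without either knockdown library of that time (38 and 35), at 8 h without any 1 of the 4 libraries of that time (131 to 136) and at 24 h without either control library of that time (54 and 71). For the difference, 155 came without replicate 1 and 39 without replicate 2 of the knockdown cells at 24 h, and 67 without replicate 2 of the control cells at 0 h. Of 1223 values of named genes under alternatives, 1119 stayed on their side of the threshold, 87 lost a call and 17 gained one. No value called in the main fit or in the alternative changed direction. Changes of direction among values called in neither were not counted.

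Same-numbered shRNA libraries shared little deviation: 2 of 15 pairs of groups correlated above 0.1 (range -0.14 to 0.37, median 0.02). No pairing was used in the main fit. With 2 libraries per group these values cannot tell whether the numbers pair the samples. With the replicate block the difference of the responses had 15 called genes, and no other count moved by over 1.5 times. For the parental table, no paired analysis was possible because its columns carry no replicate number.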
